A study of Mus musculus with 2 samples.

Results

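The Wnt ligands, their Frizzled and LRP receptors and the secreted proteins that raise or block their signal are described here by the open chromatin around them in cultured mouse fat cells. Members were picked by symbol among protein-coding genes of GENCODE release M21: any Wnt, Fzd, Rspo, Sfrp or Dkk gene with a number, together with Lrp5, Lrp6, Frzb and Wif1. This gave 45 of 21938 protein-coding genes, namely 19 Wnt ligands, 10 Frizzled receptors, 2 LRP co-receptors, 4 R-spondins, 6 antagonists that bind Wnt proteins (Sfrp1, Sfrp2, Sfrp4, Sfrp5, Frzb and Wif1) and 4 Dickkopf antagonists.

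Accessible DNA was mapped by DNase-seq, in which the enzyme DNase I cuts DNA where chromatin is open, in adipocytes made in culture from 3T3-L1, a mouse preadipocyte line, and taken at day 8. There was 1 group with 2 libraries, labelled as biological replicates 1 and 2, each combining technical replicates, and no undifferentiated or other control was analysed here. Both cultures carried the same donor record, no treatment, sex or age was recorded, and the strain label was C57BL/6J although 3T3-L1 is generally described as coming from Swiss mice. The labels did not say whether the cultures were differentiated separately, so the spread between the libraries may be technical.

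Wnt proteins are secreted, lipid-modified signals that bind a Frizzled receptor together with Lrp5 or Lrp6. In the canonical branch this stops the destruction of beta-catenin, which then works with TCF/LEF proteins on target genes. R-spondins raise the signal by keeping Frizzled proteins at the cell surface, SFRP proteins and Wif1 bind the ligands, and Dkk1, Dkk2 and Dkk4 bind the LRP co-receptors. In preadipocytes canonical Wnt signalling, with Wnt10b as its best known ligand, is known for holding back adipogenesis.

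Replicate 1 held 133695 peaks and replicate 2 held 216556, and the sequencing depth behind them is unknown. Each peak carries a value of the authors, a whole number from 1 to 150, and the sources used here do not state how it was scaled. The median was 45 in replicate 1 and 69 in replicate 2, so a value is read by its percentile within its own list and not across lists. Promoter peaks in both replicates were found at 10 of 10 adipocyte markers, 7 of 8 preadipocyte or fibroblast markers (all but Dlk1), 0 of 5 endothelial, 0 of 5 blood, 0 of 5 osteoblast and cartilage and 0 of 4 epithelial markers, 1 of 3 muscle markers (Ckm) and 1 of 3 neuronal markers (Snap25). In replicate 2 alone a promoter peak was also found at the endothelial markers Pecam1, Tek and Tie1 (3 of 5), at Adgre1 of the blood markers and at Ibsp of the osteoblast markers, and their part in the results was not tested. Adipocytes and cells that had not differentiated cannot be told apart in these libraries, nor can a site open in few cells and a site weakly open in all.

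The sequences in this paragraph are the distal sites that represent each role, the one with the highest replicate 1 value in each, and were read from the GRCm38 genome (mm10, plus strand, positions counted from 1). Capitals mark matches to any of the 9 motif families listed with the motif results, and a sequence without capitals holds none.
Wnt7b distal site, chr15:85634616-85634785: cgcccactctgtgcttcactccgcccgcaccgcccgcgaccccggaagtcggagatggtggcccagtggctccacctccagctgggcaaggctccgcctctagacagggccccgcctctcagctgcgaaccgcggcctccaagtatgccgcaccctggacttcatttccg
Fzd2 distal site, chr11:102603236-102603425: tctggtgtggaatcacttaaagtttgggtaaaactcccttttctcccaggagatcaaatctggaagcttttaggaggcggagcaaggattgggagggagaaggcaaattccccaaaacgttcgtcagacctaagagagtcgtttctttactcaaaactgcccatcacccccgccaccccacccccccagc
Lrp5 distal site, chr19:3681376-3681625: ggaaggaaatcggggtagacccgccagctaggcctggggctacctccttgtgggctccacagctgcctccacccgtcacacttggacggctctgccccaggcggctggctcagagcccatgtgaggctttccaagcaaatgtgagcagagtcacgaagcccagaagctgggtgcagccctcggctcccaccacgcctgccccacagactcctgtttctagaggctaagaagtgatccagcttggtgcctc
Rspo4 distal site, chr2:151876216-151876385: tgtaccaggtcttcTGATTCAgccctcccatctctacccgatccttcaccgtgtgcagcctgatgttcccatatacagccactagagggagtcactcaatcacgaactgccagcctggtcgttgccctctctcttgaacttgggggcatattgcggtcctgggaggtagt
Sfrp4 distal site, chr13:19636276-19636445: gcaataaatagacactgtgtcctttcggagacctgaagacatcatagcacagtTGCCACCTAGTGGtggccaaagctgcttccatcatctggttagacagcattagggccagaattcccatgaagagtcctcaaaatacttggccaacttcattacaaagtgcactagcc
Dkk3 distal site, chr7:112138856-112139065: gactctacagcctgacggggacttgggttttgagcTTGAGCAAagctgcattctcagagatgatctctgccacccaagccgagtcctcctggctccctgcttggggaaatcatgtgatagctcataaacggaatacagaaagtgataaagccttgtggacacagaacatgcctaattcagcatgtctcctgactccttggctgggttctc
The Wnt7b site lay at -52.2 kb from the gene's start and had the highest replicate 1 value of any distal member site, 123 in replicate 1 and 142 in replicate 2. The Lrp5 and Dkk3 sites lay inside introns of their genes, and both had a value of 103 in replicate 1. The Rspo4 site (75 and 109) lay 33.4 kb downstream of the start site and the Sfrp4 site (61 and 107) lay 11.6 kb downstream. The Fzd2 site (91 and 128) lay at -1.07 kb, just beyond the promoter window that its edge still overlapped.

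Which members had an accessible promoter was asked first. Of the 45 genes, 17 (37.8%) had a promoter peak in both replicates, meaning a peak of each that overlapped the 1000 bp on either side of one of its start sites. Among all protein-coding genes the share was 57.2% (12552 of 21938). Lrp5 and Sfrp4 had a promoter peak in replicate 2 alone, and the other 26 members had none in either, and none had one in replicate 1 alone. Over all genes 4.46% had a promoter peak in replicate 2 alone and 0.269% in replicate 1 alone. The calls thus numbered 17 in replicate 1 and 19 in replicate 2, where 57.5% and 61.7% of all genes were called. By role the calls were 7 of 10 Frizzled receptors, 8 of 19 Wnt ligands, 1 of 2 co-receptors, 1 of 6 antagonists that bind Wnt proteins, 0 of 4 R-spondins and 0 of 4 Dickkopf genes. Against the 57.2% of all genes the share was higher for Frizzled receptors alone, before CpG content was considered.

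**Figure D1:**
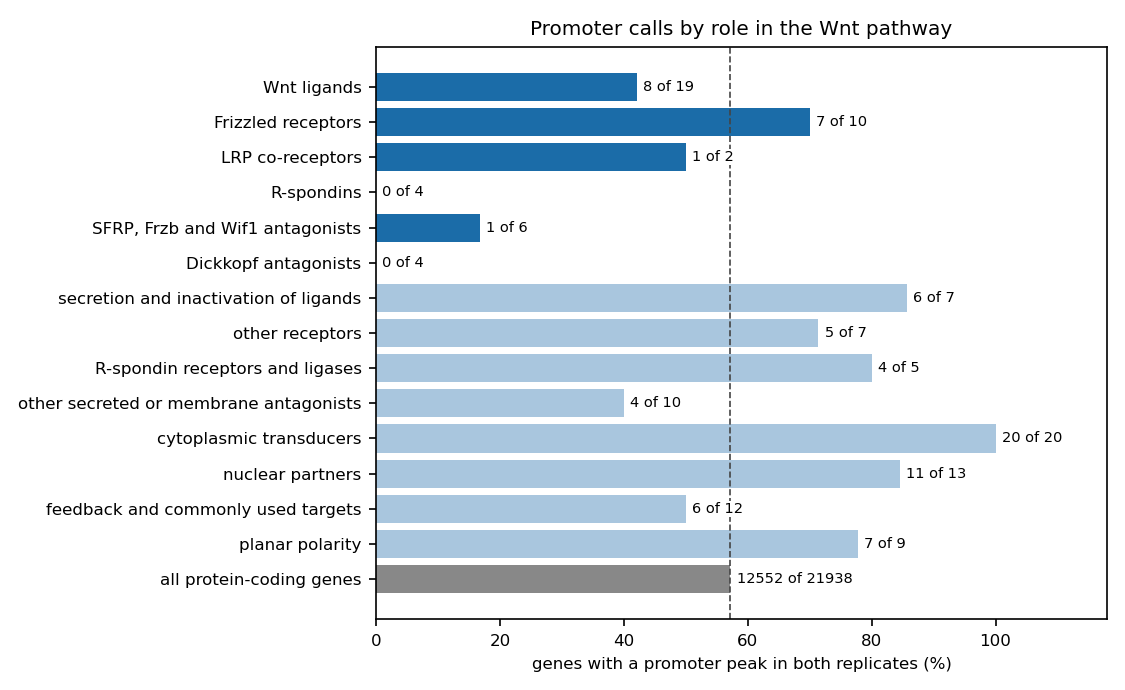
Share of genes with a promoter peak in both replicates (percent, horizontal axis) by role, with members in dark blue, the other Wnt pathway genes in light blue, all protein-coding genes in grey, and the dashed line at their 57.2%. Frizzled receptors reached 7 of 10, R-spondins and Dickkopf genes 0 of 4 each, and cytoplasmic transducers 20 of 20.

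Promoters rich in CpG dinucleotides are open in most cells, so calls were also counted by CpG content (observed over expected at least 0.6 and GC at least 50% within 500 bp of a start site). Of the members, 34 had a CpG-rich promoter and 16 of them (47.1%) were called, against 84.1% of all genes with such a promoter. Among the 11 members without one, 1 was called, Wnt1, against 29.4% of all such genes. All 10 Frizzled promoters were CpG-rich, and their share called, 70.0%, was thus below the 84.1% of genes with such promoters although above the 57.2% of all genes. Of the other roles, 3 of the 4 R-spondin promoters were CpG-rich and none of the 4 Dickkopf promoters was.

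The Frizzled genes, which encode the receptors that bind Wnt proteins, had the strongest promoter sites of any role. Fzd7 reached 129 in replicate 1 and 150 in replicate 2 at -424 bp (chr1:59481916-59482085), percentiles 99.5 and 99.9 of the 2 lists. Fzd1 had 124 and 148 at -95 bp (chr5:4758056-4758205). Both sites stood among the highest of both lists.

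Fzd5 had 115 and 139 at -149 bp (chr1:64737816-64737985), one of 4 promoter peaks in replicate 1 and 5 in replicate 2. Fzd4, which also serves as the receptor of norrin, had 103 and 140 at -65 bp (chr7:89404216-89404365). That site covered both the start of Fzd4 and the start of Tmem135, which are 0.133 kb apart and point away from each other. It cannot be given to one of them. Fzd8 had 85 and 131 at -33 bp, and Fzd3, a receptor used in planar cell polarity and axon guidance, had 55 and 105 at -17 bp. Fzd3 was the lowest of the 7 in both replicates. At least 3 promoter peaks in each replicate were counted at 7 members, of which 5 were Frizzled genes (Fzd1, Fzd2, Fzd4, Fzd5 and Fzd7) and the others Wnt5a and Lrp6, where 22.5% of all genes had as many. Fzd6, Fzd9 and Fzd10 had no promoter peak in either replicate although their promoters were CpG-rich.

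**Figure D2:**
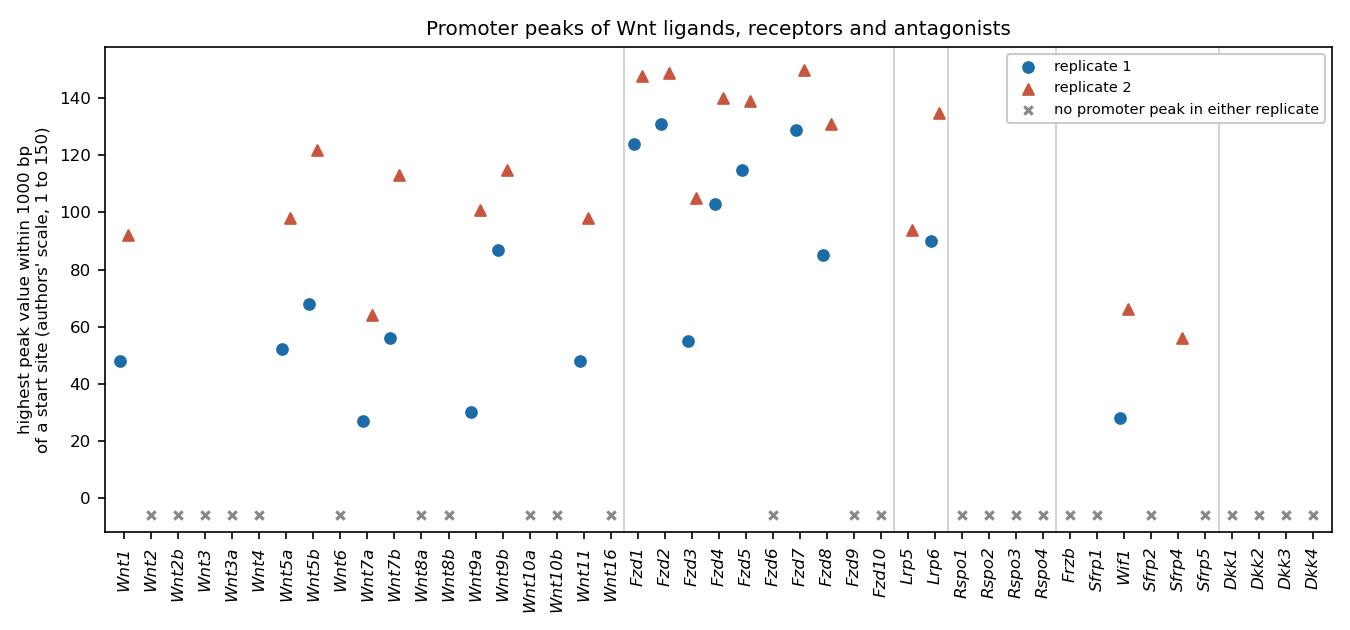
Highest peak value overlapping the 1000 bp around a start site (the authors' scale of 1 to 150, vertical axis) for each of the 45 members, with circles for replicate 1, triangles for replicate 2 and crosses for members without a peak in either; vertical lines separate the roles in the order ligands, Frizzled receptors, co-receptors, R-spondins, antagonists that bind Wnt proteins, and Dickkopf genes. Fzd7 had 129 and 150, while Wif1, the only called antagonist, had 28 and 66.

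The co-receptors differed from each other. Lrp6 had 90 in replicate 1 and 135 in replicate 2 at -285 bp (chr6:134567156-134567345), with further shared sites at 5 bp and 943 bp. Lrp5 had no promoter peak and no promoter hotspot in replicate 1, but 5 promoter peaks in replicate 2, with values from 79 to 94. The highest lay at -66 bp (chr19:3686556-3686705), and hotspots, the authors' broader regions of raised cutting, had a −log10 q of at most 5.7 there against a ceiling of 100. A promoter peak in replicate 2 alone was found at 978 genes, with a median value of 51. Of these genes 26 (2.66%) reached the 94 of Lrp5 and 35 (3.58%) had as many as 5 peaks, so Lrp5 stood near the top of that class. No value in these files says which replicate is typical for Lrp5.

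Among the ligands, Wnt5b and Wnt9b had the highest promoter values. Wnt5b, a ligand of the noncanonical branch, had 68 and 122 at -429 bp from an internal start site. Wnt9b had 87 and 115 at -1009 bp (chr11:103750756-103750905), a site that overlaps the window only by its edge. Wnt5a, the best known noncanonical ligand, had 4 shared sites, led by 52 and 85 at -160 bp and 49 and 98 at 450 bp. These 3 genes had sites at different places relative to the start.

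Wnt7b had 56 and 113 at -757 bp (chr15:85583156-85583305). Wnt11, another ligand of the noncanonical branch, had 48 and 98 at -775 bp (chr7:98837996-98838145), inside an intron and counted from an internal start site. Wnt1, the founding member of the family, had 48 and 92 at -687 bp. All 3 sites lay more than 500 bp from the start, and a narrower window of 500 bp removed the calls of Wnt1, Wnt7b, Wnt9b and Wnt11, leaving 4 of 19 ligands. Wnt9a had 30 and 64 at -108 bp and a second site at 1070 bp whose replicate 2 peak, 101, reached the window. Wnt7a had 27 and 64 at -567 bp, the lowest promoter value of a called ligand in each replicate. The 11 ligands without a promoter peak in either replicate were Wnt2, Wnt2b, Wnt3, Wnt3a, Wnt4, Wnt6, Wnt8a, Wnt8b, Wnt10a, Wnt10b and Wnt16.

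**Figure D3:**
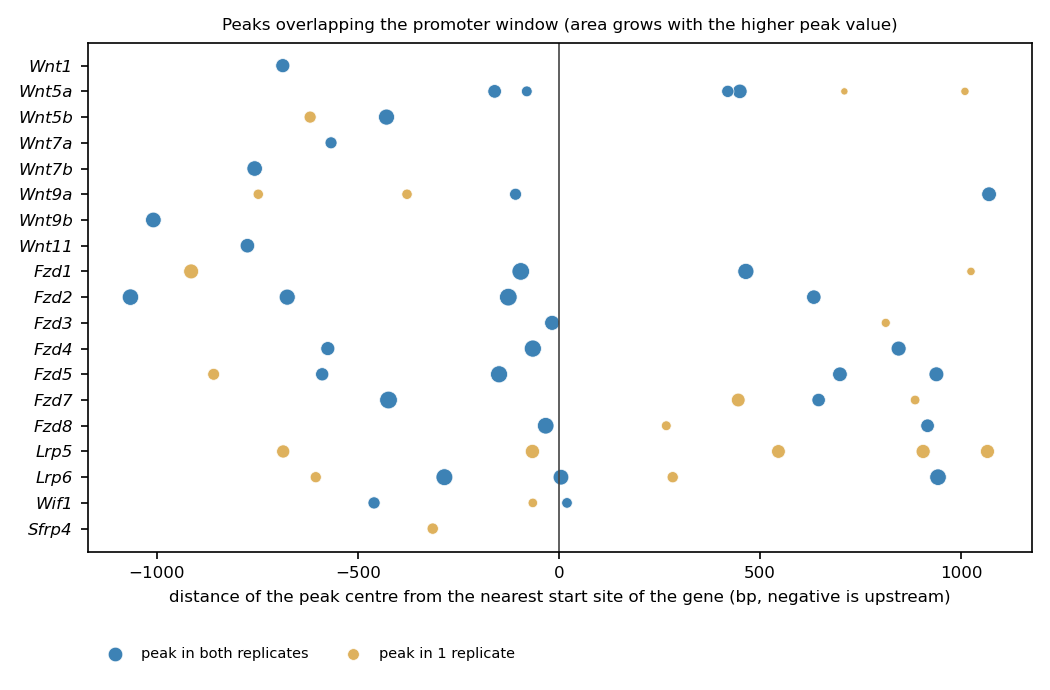
Position of each peak that overlaps a member's promoter window (distance of its centre from the nearest start site in bp, negative upstream), in blue where both replicates held it and in yellow where 1 did; point area grows with the higher peak value. The strongest Frizzled sites lie within 500 bp upstream, the sites of Wnt1, Wnt7b, Wnt9b and Wnt11 lie farther out, and all 5 at Lrp5 were found in 1 replicate.

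Of the 10 secreted antagonists, Wif1 alone was called. Wif1, which binds Wnt proteins outside the cell, had 28 and 66 at -460 bp (chr10:121033396-121033605), percentiles 20.8 and 46.5. Sfrp4 had no promoter peak in replicate 1 and a value of 56 in replicate 2 at -314 bp (chr13:19622716-19622865), close to the median of 51 for genes with such a peak in that replicate alone. Sfrp1, Sfrp2, Sfrp5, Frzb, Dkk1, Dkk2, Dkk3 and Dkk4 had none in either replicate. Of these, Dkk2 missed the rule narrowly. Dkk2 had a shared site at -1122 bp with values of 33 and 58, whose hotspot reached into the window by 3 bp in replicate 1 and 17 bp in replicate 2. The nearest shared site of Sfrp5 was 2298 bp from a start site, and that of the ligand Wnt6 was 1368 bp away. With a window of 2500 bp these 3 genes were called too. Rspo1, Rspo2, Rspo3 and Rspo4 had no promoter peak in either replicate and were not called with any of the windows.

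Distal sites were counted next, as peaks shared by the replicates whose centre lies beyond 1000 bp of all start sites of coding genes, each given to the closest such site if that is within 100 kb. The members held 235 such sites (258 distal peaks in replicate 1 and 393 in replicate 2), with 0 to 19 a gene. Of the 235, 3 also overlapped a promoter window by their edge, at Wnt9a, Wnt9b and Fzd2, and are counted there too. The median was 4 a member and 2 over all genes, but members also have more DNA that would be assigned to them, a median of 81.5 kb against 41.3 kb. Per 100 kb of this territory the medians were 6.13 and 3.93. Against genes with a like territory, in 10 bins of all genes, 27 members (60.0%) lay above the median of their bin, 5 at it and 13 below, where 42.0% of all genes lay above. At least 1 site was held by 42 members, against 68.6% of all genes with a territory, and at least 7 by 15 members, against 17.4%. Wnt2, Wnt10b and Fzd10 had none.

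**Figure D4:**
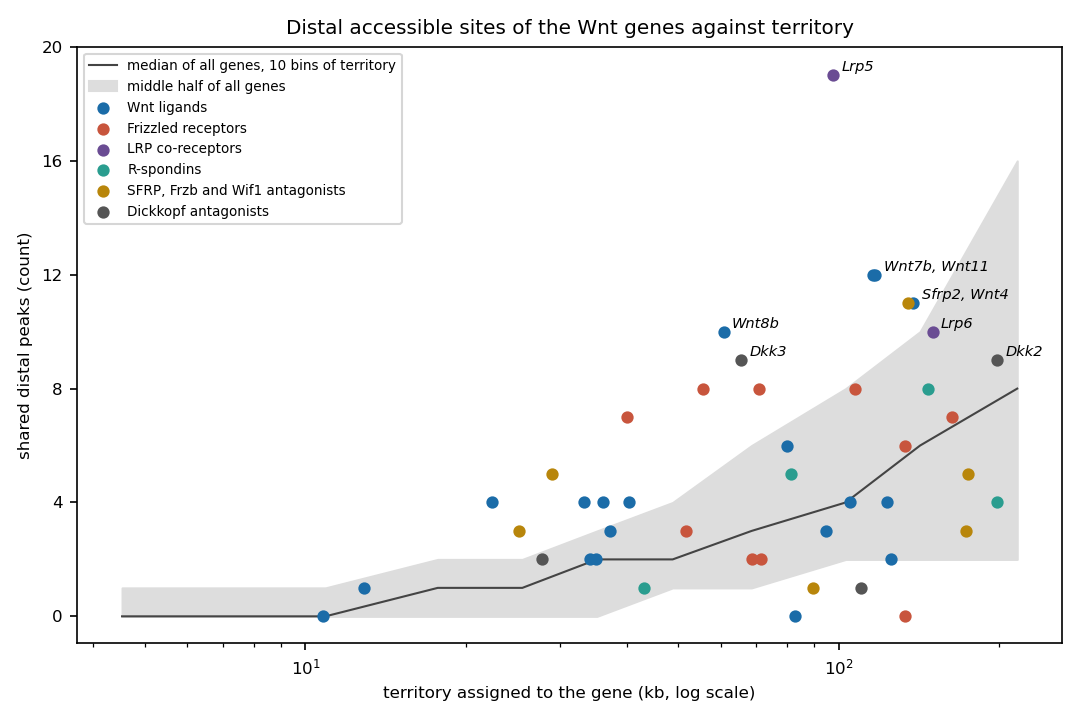
Shared distal peaks a gene (count, vertical axis) against the territory assigned to it (kb, log scale), with members coloured by role, the line giving the median of all genes in 10 bins of territory and the grey band the range from their 25th to 75th percentile. Lrp5, with 19 sites in 97.6 kb, stands farthest above the band.

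Of the 28 members not called at the promoter, 25 held at least 1 shared distal site, the exceptions being Wnt2, Wnt10b and Fzd10. Among all genes without the promoter call, 4987 of 9386 held at least 1. Lrp5 and Sfrp4, whose promoter peaks were found in replicate 2 alone, are counted among the 28. The 28 members lacking a promoter peak in both replicates held a median of 3.5 distal sites and 5.83 per 100 kb. All genes of that kind had medians of 1 and 0.855, while genes with a promoter peak in both replicates had 3 and 5.83. The 28 also had more territory, a median of 74.4 kb against 41.4 kb for all genes without the promoter call. A CpG-rich promoter was found at 18 of the 28, against 1775 of the 9386 genes without the call. The counts in this paragraph were matched for neither. At least 5 distal sites were held by 11 of the 28 members, against 14.1% of all genes without the promoter call (6.02% of all protein-coding genes had both properties). Those 11 were Wnt2b, Wnt4, Wnt8b, Lrp5, Rspo2, Rspo4, Sfrp1, Sfrp2, Sfrp5, Dkk2 and Dkk3.

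Lrp5 had the most distal sites of any member, 19 in both replicates, 19.5 per 100 kb. Of these, 16 lay in its own introns and 3 upstream of the gene. Its strongest site, the one printed above (chr19:3681376-3681625), had 103 and 135, and a second at chr19:3674216-3674365 had 102 and 141. Lrp5 thus combined an absent promoter peak in replicate 1 with intronic sites at percentiles 93.7 and 93.4 of the same list. Lrp6 held 10 sites, the strongest in an intron at chr6:134514036-134514205 with 82 and 125. In replicate 2 alone Lrp5 had 29 sites and Lrp6 had 24.

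Wnt7b, Wnt11 and Wnt4 led the ligands with 12, 12 and 11 sites, which were 24, 19 and 19 in replicate 2 alone. The strongest site of Wnt11, chr7:98816176-98816385, had 87 and 139 and lay at -18.8 kb in intergenic DNA. Wnt4, a ligand of kidney and reproductive tract development, had 86 and 117 at chr4:137231636-137231805, -45.8 kb from its start. Ligand sites lay mostly upstream: 60 of 88 (68.2%), where 47.1% of all distal sites were upstream of the start site they were assigned to. A large part of the 60 belonged to Wnt8b, whose 10 sites all lay upstream, and to Wnt7b. Ligands also held 10 of the 15 member sites in the highest 10% of the replicate 1 list, most of them at Wnt8b and Wnt7b. That was 11.4% of the ligand sites, and the share was higher for LRP sites, 13.8% (4 of 29). Frizzled genes, whose promoters were the strongest, held 0. Over all 235 sites that share was 6.38%, close to the 6.58% of all distal sites. In the replicate 2 list, however, Frizzled sites did reach the highest 10%, at Fzd2 (percentile 92.2) and Fzd1 (percentile 90.4).

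Fzd4, Fzd5 and Fzd7 led the Frizzled receptors with 8 sites each. Fzd4 had 59 and 99 at chr7:89437736-89437905, 33.5 kb downstream of its start. Fzd5 had 72 and 119 at chr1:64717656-64717805, inside an intron of the neighbouring gene Ccnyl1. Fzd7 had 58 and 99 at chr1:59457996-59458145, at -24.4 kb. Each value was below that of the gene's strongest promoter site in both replicates, but above some of its weaker promoter sites. The order depended on the replicate and the reach: in replicate 2 alone Fzd7 had 18, Fzd2 12, Fzd5 9 and Fzd4 8, and within 50 kb Fzd7 had 4. Fzd1 and Fzd2 were close behind with 7 shared sites each.

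Among the R-spondins the order was Rspo2 with 8 sites, Rspo4 with 5, Rspo3 with 4 and Rspo1 with 1. The strongest site of Rspo2, chr15:43074356-43074525, had 68 and 110 and lay in an exon 96.4 kb into the gene. Rspo3 had 46 and 107 at chr10:29494136-29494285, in an intron. In replicate 2 alone Rspo2 had 17. Only 2 of the 18 R-spondin sites lay upstream, where 60 of 88 ligand sites did, and 8 of the 18 belonged to Rspo2.

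Sfrp2 held 11 sites, Sfrp1 and Sfrp5 5 each, Sfrp4 and Wif1 3 each and Frzb 1. The strongest of Sfrp2, chr3:83797936-83798105, had 54 and 89 at 31.2 kb, that of Sfrp1, chr8:23491996-23492165, had 58 and 98 at 80.6 kb, and that of Sfrp5, chr19:42217536-42217685, had 46 and 85 at -15.4 kb. Sites of this role had a median percentile of 29.4 in the replicate 1 list, against 44.1 for all members and 51.4 for all distal sites, and of 47.8 in the replicate 2 list, against 65.7 and 68.9. In replicate 2 alone Sfrp2 had 19 sites, Sfrp1 12 and Sfrp5 8, and within 50 kb Sfrp1 had 1. None of the 28 lay in the highest 10% of that list.

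Dkk2 and Dkk3 held 9 sites each, Dkk4 2 and Dkk1 1. Dkk2 had 80 and 109 at chr3:132169036-132169185 in its own intron, 83.8 kb from the start. Dkk3, a divergent Dickkopf protein not generally counted as an LRP blocker, had the 103 and 132 of the site printed above. Dkk4 had 71 and 112 at chr8:22637016-22637185, a site that lies in an exon of Polb and may be counted to either gene. The median percentile of Dickkopf sites was 30.4 in replicate 1 and 61.4 in replicate 2, where it was 68.9 for all distal sites. In replicate 2 alone Dkk2 had 16 sites and Dkk4 had 5, and Dkk3 had 12.

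**Figure D5:**
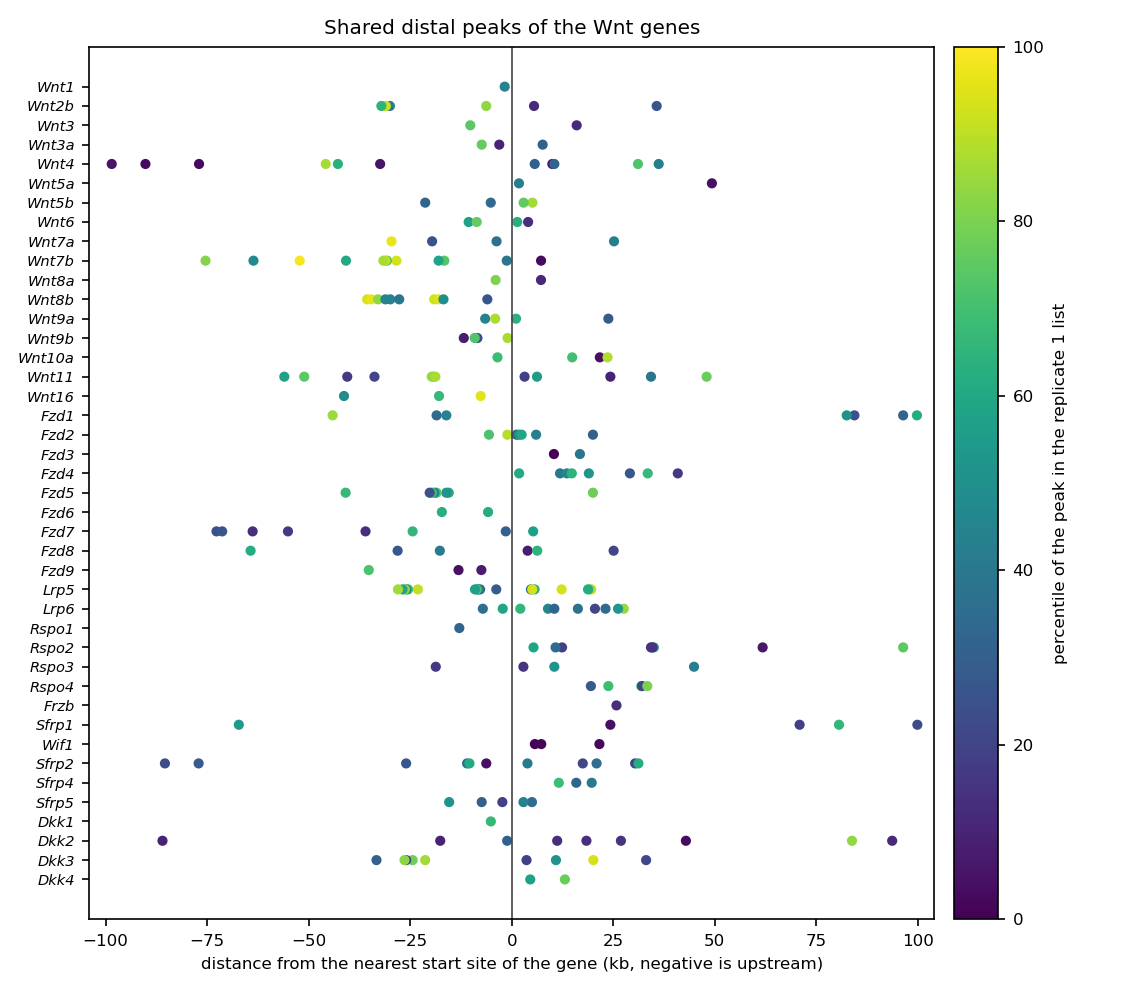
Distance of each shared distal peak from the nearest start site of its gene (kb, negative upstream), coloured by its percentile in the replicate 1 list; 42 members with at least 1 site are shown. The ligand sites lie mostly upstream (60 of 88) and the R-spondin sites mostly downstream (16 of 18).

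The distal sites of the members lay largely between genes. Intergenic sites made up 63.8%, introns 31.1% and exons 5.11%, against 44.1%, 51.0% and 4.83% of all distal sites, and the median distance was 19.0 kb against 14.3 kb. The LRP genes, with 22 of 29 sites in introns, the R-spondins, with 12 of 18, and the Dickkopf genes, with 10 in introns and 9 between genes, were the exceptions. Of the distal member peaks of replicate 1, 92.2% overlapped a peak of replicate 2, and of those of replicate 2, 60.3% overlapped one of replicate 1. The same shares over all genes were 91.9% and 53.2%.

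Motif letters were searched on both strands of the central 150 bp of each distal site. The letters were CTTTGAT or CTTTGAA for TCF/LEF, TTGCNNAA for C/EBP, 2 copies of AGGNCA separated by 1 base for PPAR-RXR, TGANTCA for AP-1, TTGGC and GCCAA separated by 5 bases for NFI, CCCNNGGGA for EBF and GGAATG for TEAD, with the glucocorticoid receptor element and the CTCF core as the remaining families. TCF/LEF letters, those of the factors at the end of the canonical pathway, were found in 5 of 235 member sites (2.13%) and in 4.09% of all distal sites. The member share was 3.49% in replicate 1 alone, 3.31% in replicate 2 alone and 0.917% among the stronger 50% of peaks. The shares of all distal sites under these settings are not given here, so these member shares cannot be set against the 4.09%. The 5 sites belong to Wnt4, Fzd1, Sfrp4, Wnt2b and Wnt6 and are printed in order of their replicate 1 value, with all listed motifs in capitals.
Wnt4 distal site, chr4:137308556-137308705: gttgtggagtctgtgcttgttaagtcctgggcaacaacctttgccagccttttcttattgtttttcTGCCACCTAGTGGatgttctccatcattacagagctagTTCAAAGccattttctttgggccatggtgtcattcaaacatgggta
Fzd1 distal site, chr5:4776416-4776585: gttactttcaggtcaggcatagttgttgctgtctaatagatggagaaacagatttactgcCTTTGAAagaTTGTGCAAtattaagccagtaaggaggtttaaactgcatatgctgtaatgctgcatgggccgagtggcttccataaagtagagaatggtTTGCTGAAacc
Sfrp4 distal site, chr13:19640596-19640745: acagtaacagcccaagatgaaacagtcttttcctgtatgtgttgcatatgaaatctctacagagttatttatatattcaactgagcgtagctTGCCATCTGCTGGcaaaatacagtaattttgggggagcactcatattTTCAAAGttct
Wnt2b distal site, chr3:104925956-104926105: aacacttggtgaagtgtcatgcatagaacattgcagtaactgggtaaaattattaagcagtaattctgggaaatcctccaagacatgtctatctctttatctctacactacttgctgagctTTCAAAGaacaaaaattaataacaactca
Wnt6 distal site, chr1:74775836-74776025: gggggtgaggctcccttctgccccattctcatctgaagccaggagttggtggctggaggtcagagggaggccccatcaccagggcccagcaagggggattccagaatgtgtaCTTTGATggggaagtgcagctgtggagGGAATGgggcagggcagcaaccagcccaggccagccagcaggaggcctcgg
The TCF/LEF match is CTTTGAA at Fzd1, CTTTGAT at Wnt6 and TTCAAAG, the same letters on the other strand, at Wnt4, Sfrp4 and Wnt2b. The values were 65 and 104 at Wnt4, 35 and 77 at Fzd1, 34 and 68 at Sfrp4, 31 and 56 at Wnt2b and 24 and 55 at Wnt6, so only the Wnt4 site lay above the replicate 1 median. The sites at Wnt4 and Sfrp4 also hold CTCF letters. A match is a description of these bases and not evidence of binding.

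PPAR-RXR letters, the repeat read by the central fat cell receptor, were found in 4 member sites (1.70%) and in 0.635% of all distal sites. The 4 belong to receptors and co-receptors, Fzd5, Fzd8, Lrp5 and Lrp6, and 3 of them are printed, a choice made after the values were seen.
Lrp6 distal site, chr6:134473416-134473585: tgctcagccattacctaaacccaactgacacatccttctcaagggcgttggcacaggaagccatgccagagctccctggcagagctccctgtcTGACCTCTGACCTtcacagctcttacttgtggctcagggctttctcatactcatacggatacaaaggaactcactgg
Fzd5 distal site, chr1:64753776-64753945: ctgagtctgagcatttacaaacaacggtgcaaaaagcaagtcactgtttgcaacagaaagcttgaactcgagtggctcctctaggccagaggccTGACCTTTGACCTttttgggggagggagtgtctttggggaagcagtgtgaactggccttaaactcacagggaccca
Lrp5 distal site, chr19:3641656-3641825: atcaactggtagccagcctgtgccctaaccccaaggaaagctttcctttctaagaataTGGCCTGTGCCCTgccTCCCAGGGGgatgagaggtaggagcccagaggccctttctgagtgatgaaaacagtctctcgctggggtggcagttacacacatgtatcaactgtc
The Lrp6 site had 52 and 111, the Fzd5 site 46 and 107 and the Lrp5 site 42 and 85. The count of 4 is small. C/EBP letters were in 30 member sites (12.8%), the same share as in all distal sites. By role the share was highest for LRP sites, 24.1% (7 of 29), and Dickkopf sites, 23.8% (5 of 21). It was lowest for antagonists that bind Wnt proteins, 3.57%, and ligands, 6.82%. Shares for the other families were 12.8% against 10.1% for TEAD, 8.09% against 6.68% for CTCF and 3.83% against 3.79% for EBF. AP-1 letters were in 17 member sites (7.23%), against 7860 of all 78369. NFI letters were in 1 site, at Wnt7b, and glucocorticoid receptor letters in 0 of 235 against 0.475% of all distal sites. None of the listed families was found in 60.9% of member sites and 59.0% of all.

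Several Wnt ligands sit next to each other in the mouse genome, and the pairs were examined after the values had been seen. Between the start sites of Wnt6 and Wnt10a (21.5 kb) there were 3 shared peaks, between Wnt10b and Wnt1 (12.8 kb) 2, between Wnt9b and Wnt3 (24.3 kb) 5 and between Wnt3a and Wnt9a (16.2 kb) 5, and no coding gene lay between any pair. In 3 of the pairs 1 partner was called at the promoter (Wnt1, Wnt9b and Wnt9a), and in the pair of Wnt6 and Wnt10a neither was. Wnt10b had neither a promoter peak nor a distal site, and its territory was short, 10.8 kb, between Arf3 and Wnt1.

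The rest of the pathway was described with a list of 83 other annotated genes. Of these 63 (75.9%) had a promoter peak in both replicates. All 83 together held 628 distal sites, a median of 5 a gene where it was 2 over all protein-coding genes. Their territory was also larger, a median of 113 kb against 41.3 kb. All 20 cytoplasmic transducers were called, as were 11 of 13 nuclear partners, 6 of 7 genes for secretion or inactivation of ligands, 4 of 5 R-spondin receptors and ligases, 5 of 7 other receptors and 7 of 9 planar polarity genes. Of the 83, 69 had a CpG-rich promoter and 55 of these (79.7%) were called, against 84.1% of all such genes, so the list was above the background over all genes and below it among CpG-rich promoters. The shares were lower for other antagonists, 4 of 10, and for feedback genes and common targets, 6 of 12. Tcf7l2, a TCF factor, held the most distal sites, 51, followed by Prickle2, a planar polarity gene, with 32 and Tle3, a corepressor, with 30.

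The list members not called included the feedback genes Axin2, Nkd1, Nkd2, Dact2 and Sp5, of which Axin2 is the most widely used readout of canonical signalling. Axin2 had 5 distal sites in a territory of 199 kb, 2.52 per 100 kb, which was below the median of 3.93 over all genes. Dact2 had 10 in 108 kb, 9.27 per 100 kb. Among antagonists, Sost, Sostdc1, Kremen2, Draxin and Shisa3 were not called, nor were the receptor Ror2, the ligand gene Ndp, the R-spondin receptor Lgr5, Gpc3, Tcf7, Tle2 and Celsr1. Dkkl1, Dact1 and Celsr3 had a promoter peak in replicate 2 alone, with values of 45, 43 and 75. The share called was above the 57.2% of all genes for Frizzled receptors and for transducers inside the cell. It was also above 57.2% for nuclear partners, secretion or inactivation genes, R-spondin receptors and ligases, other receptors and planar polarity genes. Among CpG-rich promoters, the share was above 84.1% for transducers (19 of 19), nuclear partners (91.7%) and R-spondin receptors and ligases (3 of 3). The share called was below 57.2% for the secreted antagonists among the members (1 of 10) and for the other secreted or membrane antagonists on the list (4 of 10). It was also below 57.2% for Wnt ligands (8 of 19), LRP co-receptors (1 of 2), R-spondins (0 of 4) and feedback genes and common targets (6 of 12).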

How the data were processed

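DNase-seq peaks and hotspots were used as deposited, 1 list of each for each library. In the peak lists the deposited signal of a peak runs from 1 to 150, and each deposited hotspot carries a −log10 q, with a ceiling of 100 that 46.7% and 48.5% of hotspots reached. The sources used here name no caller, aligner, filter or depth, so no interval is attached to a value. The build was mm10, per the labels. Identical lines (20 and 33) were counted once, and 337 and 603 peaks off the assembled chromosomes were left out. Peaks overlapping by 1 bp or more were merged, and an interval with a peak of both libraries is a shared peak. There were 117590, of which 92930 were distal and 78369 lay within 100 kb of a protein-coding start site. Start sites were those of all transcripts of protein-coding genes in GENCODE M21. With 1 group no test was run, and counts are set beside those of all protein-coding genes. The counting rules were tested on simulated data. The sequence of 1 promoter site is not reported here. Members, lists and motifs were chosen with earlier results of these data known. The genes described in full are the 3 of each role with the most distal sites and those with a promoter peak in 1 library alone, each with its highest replicate 1 sites. Alternatives changed the window, the reach, the overlap, the start sites, the strength of peaks, the bases searched and the replicates used. Python 3.11.15, numpy 2.4.6, pandas 2.3.3, pysam 0.24.0 and matplotlib 3.10.9 were used.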

Additional observations from a re-analysis of the deposited data

How the results depend on the processing

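The 17 promoter calls ranged from 13 with a window of 500 bp, which lost Wnt1, Wnt7b, Wnt9b and Wnt11, to 20 with 2500 bp, which added Dkk2, Sfrp5 and Wnt6. The stronger 50% of each list gave 14 (without Wif1, Wnt7a and Wnt9a), hotspots gave 18, and single replicates gave 17 to 19. A peak centre required inside the window gave 16, without Wnt9b. The list of 83 ranged from 58 to 69. The 235 distal sites fell to 128 within 20 kb and to 109 for the stronger 50% of peaks, and single replicates gave 258 to 393. The TCF/LEF share of 2.13% was 7.23% with the central 300 bp (9.62% of all distal sites), 0.917% with the stronger 50%, and 3.31% to 3.49% in single replicates. Among these settings the share of all distal sites is given for the central 300 bp alone. Of 167 alternatives for named genes and roles, 117 stayed within 1.5 times and 50 moved further, 14 of them with replicate 2 alone. The nearest start site need not be the gene a site acts on, and since depth is unknown, a site absent from replicate 1 and one missed there cannot be told apart.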

Other observations

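Some of the strongest distal sites near ligands belong to genes whose promoters had no peak, and they were noted after their values had been seen. Wnt8b, a ligand of forebrain development, had no promoter peak in either replicate but 10 distal sites, all upstream. They included chr19:44458796-44458985 with 111 in replicate 1 and 146 in replicate 2 and chr19:44475376-44475545 with 106 and 133. The neighbouring coding gene on that side is Scd1, a stearoyl-CoA desaturase of fat synthesis, whose nearest start site is 85.6 kb from that of Wnt8b and to which 24 distal sites were assigned. Wnt16 had no promoter peak and a site at chr6:22280516-22280685 with 109 and 128, at -7.63 kb. Wnt7a, whose promoter did have a peak in both replicates, had 112 and 144 at chr6:91440876-91441045, at -29.6 kb. That site lay within 1000 bp of the start of a noncoding transcript, as did 10 of the 235 member sites. Which gene any of these sites acts on was not tested.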
